A study of Mus musculus with 10 samples.

Results

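Lhx2, Ldb1, Ebf1, Ebf2, Ebf3, Ebf4, Emx2 and Bptf code for nuclear proteins tied to the enhancers and promoters of olfactory receptor (OR) genes, and Dennd1a and Nek6 lie on either side of Lhx2 on mouse chromosome 2. These 10 genes, of 19938 with a probe set of a single gene symbol, were followed through 11 such probe sets in whole main olfactory epithelium (MOE), where odors are sensed. Tissue came from 4 arrays of H2be-GF mice and 6 arrays of wild-type (WT) mice, all 5 weeks old. H2be-GF mice carry the Omp:Flag-H2be transgene, in which the promoter of olfactory marker protein (Omp) drives H2BE, a histone variant, with a FLAG tag in mature olfactory neurons, apart from a band of neurons near zone 2, and the line was established by crosses to C57Bl/6. The comparison asks what an excess of H2BE does to the tissue. The strain background of the WT mice is not given in the sources used here. Each array held RNA pooled from several mice (more of them for H2be-GF than for WT), so that p-values reflect how much such pools vary. Males and females were in equal number by the series' account. All transgenic arrays stem from a line with 1 founder, so that the transgene and anything particular to that line cannot be told apart.

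The members were chosen by measured values of these arrays: Lhx2 was among the genes called in the H2be-GF against WT comparison, its neighbours were taken with it, and the other genes were added for their known role. The differences between H2be-GF and WT below are therefore a description of these members, and nothing is supported with them. Contrasts that played no part in the choice are those between 2 sets of arrays that differ in Xist, and they are tested further down.

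Each mature olfactory neuron expresses a single OR gene, and a network of enhancers on many chromosomes takes part in that choice. The LIM-homeodomain protein LHX2 and the early B-cell factors (EBF, first described in this tissue as Olf-1) bind adjacent motifs in those enhancers, and the adaptor LDB1 is recruited by LHX2 and links the enhancers to each other across chromosomes. EMX2 is a homeodomain protein that many OR genes need for normal transcription, and BPTF is the largest subunit of the chromatin remodeler NURF. Values are the deposited log2 signals, in which a difference of 1 is a doubling. Differences are taken between arrays for a given probe set, since the probes of different probe sets differ in brightness. Where levels of different probe sets are set side by side, they describe brightness and not amounts of RNA.

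The arrays were alike in level, with medians of 7.74 to 7.91 and pairwise correlations of 0.969 to 0.988. Xist, the RNA of X inactivation, had a signal of at least 11.69 on 5 arrays and of at most 4.61 on 5, and each set held 2 H2be-GF and 3 WT arrays. Pools of males alone would give such a low level. The equal number of the sexes may thus hold over the arrays of a genotype rather than within each pool. The labels give no sex for an array, and the 2 sets may differ in sex. Hist2h2be, the gene of H2BE, lay at 11.76 to 11.92 on H2be-GF arrays and at 12.00 to 12.13 on WT arrays. The difference was -0.23 (SE 0.06, limma adjusted p = 0.297), and 1.6% of all probe sets tested were separated in that direction. This probe set may not see the transgene. By quantitative PCR the authors found the transgene expressed far above the endogenous gene in this line. Of 13 lists of cell type markers none held a called gene (adjusted p under 0.05 in limma), where only 0.0862% of all probe sets tested were called. The mean of 14 markers of mature olfactory neurons was 11.64 to 11.68 on H2be-GF arrays and 11.69 to 11.77 on WT arrays, and that of 7 markers of respiratory ciliated cells was 9.32 to 9.42 on H2be-GF arrays and 9.47 to 9.64 on WT arrays. Neither overlapped between genotypes, whereas the means of all other marker lists did, and these lists were picked out for it. By gene, 3 of the 14 and 0 of the 7 had a difference above 0. Every H2be-GF array lay below every WT array for 3 of the 14 and 1 of the 7, against 1.6% of all probe sets tested. At an unadjusted p under 0.05 in limma, 1 of the 14 and 5 of the 7 were lower, against 4.07% of all. In either list 0 were higher, against 4.35% of all. The part of these markers in the results below was not tested. In whole tissue, fewer cells of a type and less RNA per cell cannot be told apart.

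Lhx2 was higher on the H2be-GF arrays, with no overlap between the genotypes. Its log2 signal was 11.50, 11.42, 11.46 and 11.45 on the H2be-GF arrays and 11.11, 11.01, 11.09, 11.17, 11.03 and 11.14 on the WT arrays. The lowest H2be-GF array thus lay 0.25 above the highest WT array, while the arrays of a genotype stayed close together. The means were 11.46 ± 0.03 (SD, n = 4) for H2be-GF and 11.09 ± 0.06 (SD, n = 6) for WT, with a difference of 0.37 (SE 0.06, 95% interval 0.24 to 0.49) or 1.29-fold. In limma, fitted over 23194 probe sets with Benjamini-Hochberg adjustment, Lhx2 ranked 19 by p with an adjusted p of 0.0425. A probe set was called at an adjusted p under 0.05, and 20 of the 23194, or 0.0862%, were called. Of the 11 member probe sets 1 was called, that of Lhx2, which is the value that chose it. At an unadjusted p under 0.05 in limma, 5 of the 11 were higher and 0 lower, where 4.35% of all probe sets were higher and 4.07% lower. That count, too, only describes members chosen with these values known.

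The size of the Lhx2 difference moved little with the processing, between 0.35 and 0.39 over 22 other settings, whereas its call did not hold in most of them. Leaving out any of the 10 arrays ended the call, at an adjusted p of 0.0665 (without WT 4) to 0.190 (without H2be-GF 1) in limma, with a difference of 0.35 to 0.38. It passed under 5 settings that kept all arrays. The lowest adjusted p among them was 1.85e-08, in limma with a trended and robust variance, and in the arrays of either Xist set alone it was 0.920 or above. The within-genotype SD of Lhx2 was 0.05, lower than that of all but 1.2% of the probe sets tested.

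**Figure D1:**
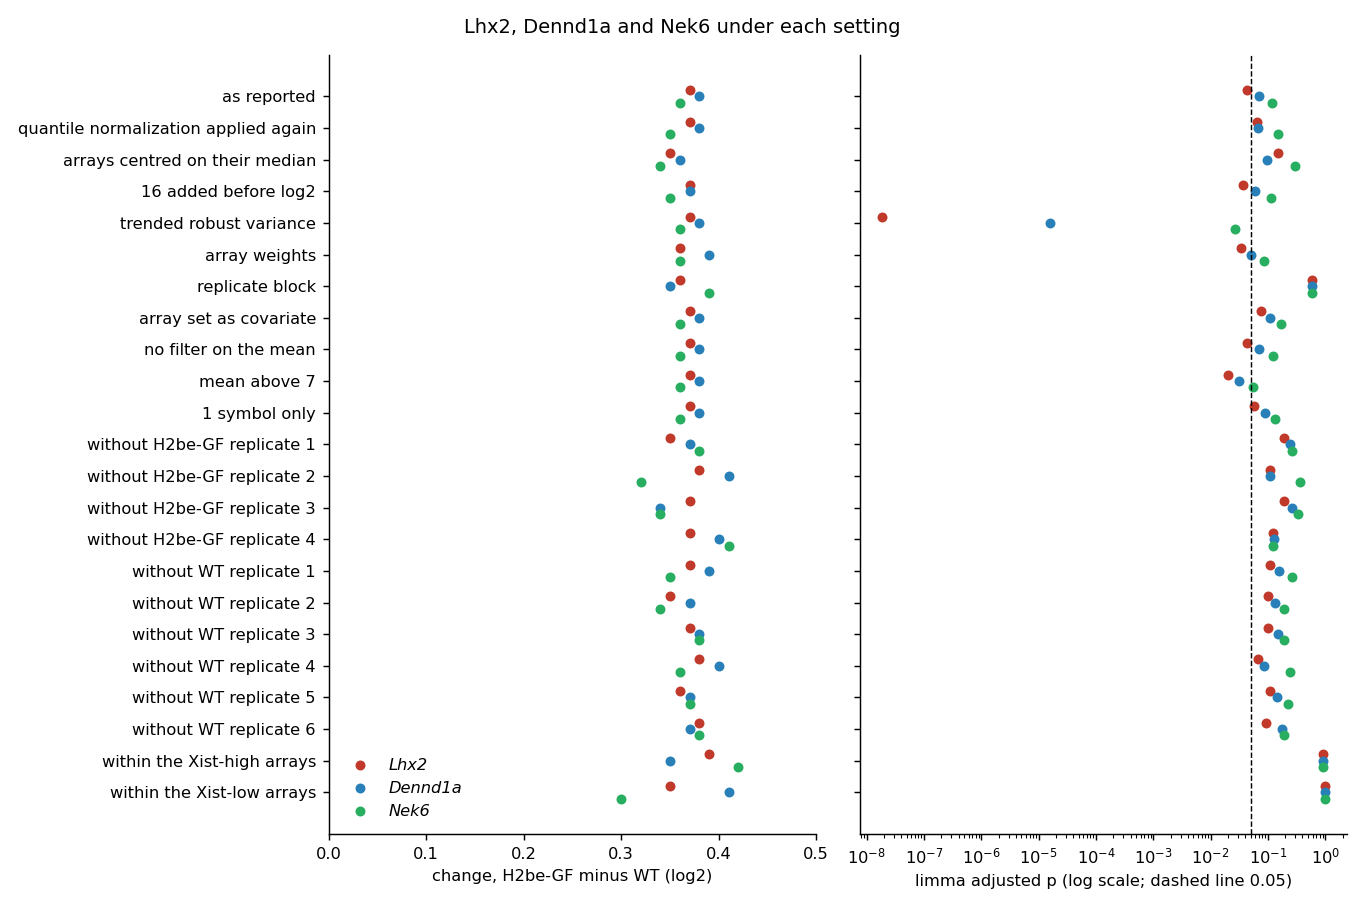
Difference between H2be-GF and WT (left, log2) and limma adjusted p (right, log scale, dashed line at 0.05) for Lhx2 (red), Dennd1a (blue) and Nek6 (green), with the reported values on top and 22 other settings below. The differences stay between 0.30 and 0.42, while most adjusted p lie to the right of the line.

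Ldb1, the adaptor that joins LHX2-bound enhancers, had a difference of opposite sign and smaller size. Its signal was 10.64, 10.61, 10.63 and 10.51 on the H2be-GF arrays and 10.77, 10.65, 10.70, 10.74, 10.67 and 10.68 on the WT arrays. All H2be-GF values were the lower ones, although the closest arrays, H2be-GF 1 at 10.64 and WT 2 at 10.65, nearly met. The difference was -0.10 (SE 0.06, 95% interval -0.23 to 0.02) with an adjusted p of 0.668 in limma, so that it did not pass the test. Over all probe sets tested, 1.6% had the genotypes separated in that direction, and Ldb1 was the only member among the 11 probe sets that did.

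Of the 4 EBF genes, 2 had differences above 0 and 2 had differences near 0, and none passed the test. Ebf1 had 11.32, 11.33, 11.25 and 11.18 on H2be-GF arrays, against a lowest value of 11.07, a median of 11.09 and a highest of 11.23 on WT arrays. Ebf3 had 11.60, 11.48, 11.63 and 11.51 on H2be-GF arrays, against a lowest value of 11.33, a median of 11.41 and a highest of 11.53 on WT arrays. For each of these genes at least 1 H2be-GF array fell within the range of WT, and WT 4 was the highest WT array. Both differences were 0.14 (SE 0.06), or 1.10-fold, with adjusted p of 0.576 for Ebf1 and 0.581 for Ebf3 in limma.

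Ebf2 and Ebf4 overlapped fully. Ebf2 lay at 11.59 to 11.76 on H2be-GF arrays and at 11.58 to 11.87 on WT arrays, with a difference of -0.004 (SE 0.07, 95% interval -0.16 to 0.15). Ebf4 lay at 10.87 to 11.05 on H2be-GF arrays and at 10.78 to 11.07 on WT arrays, with a difference of 0.04 (SE 0.07, 95% interval -0.12 to 0.20). In each case the H2be-GF range fell inside the WT range, and both intervals ended below the lower bound of 0.24 for Lhx2.

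Emx2 overlapped between the genotypes. It had 9.88, 9.94, 9.85 and 9.88 on H2be-GF arrays and 9.88, 9.70, 9.75, 9.92, 9.73 and 9.71 on WT arrays. The WT arrays fell apart into 2 high ones (WT 1 and WT 4), which matched the H2be-GF arrays, and 4 low ones. The difference was 0.11 (SE 0.06, 95% interval -0.03 to 0.25) and did not pass the test (limma adjusted p = 0.685).

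Bptf was measured by 2 probe sets, and neither separated the genotypes. The first (10392300) had a mean of 9.92 ± 0.09 (SD, n = 4) on H2be-GF arrays and of 9.90 ± 0.09 (SD, n = 6) on WT arrays, a difference of 0.02 (SE 0.07, limma adjusted p = 0.955). The second (10392318) had a mean of 9.38 ± 0.09 (SD, n = 4) on H2be-GF arrays and of 9.30 ± 0.10 (SD, n = 6) on WT arrays, a difference of 0.08 (SE 0.07, limma adjusted p = 0.798). Their highest arrays were not the same, H2be-GF 1 and WT 1 for the first and H2be-GF 3 and WT 3 for the second.

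**Figure D2:**
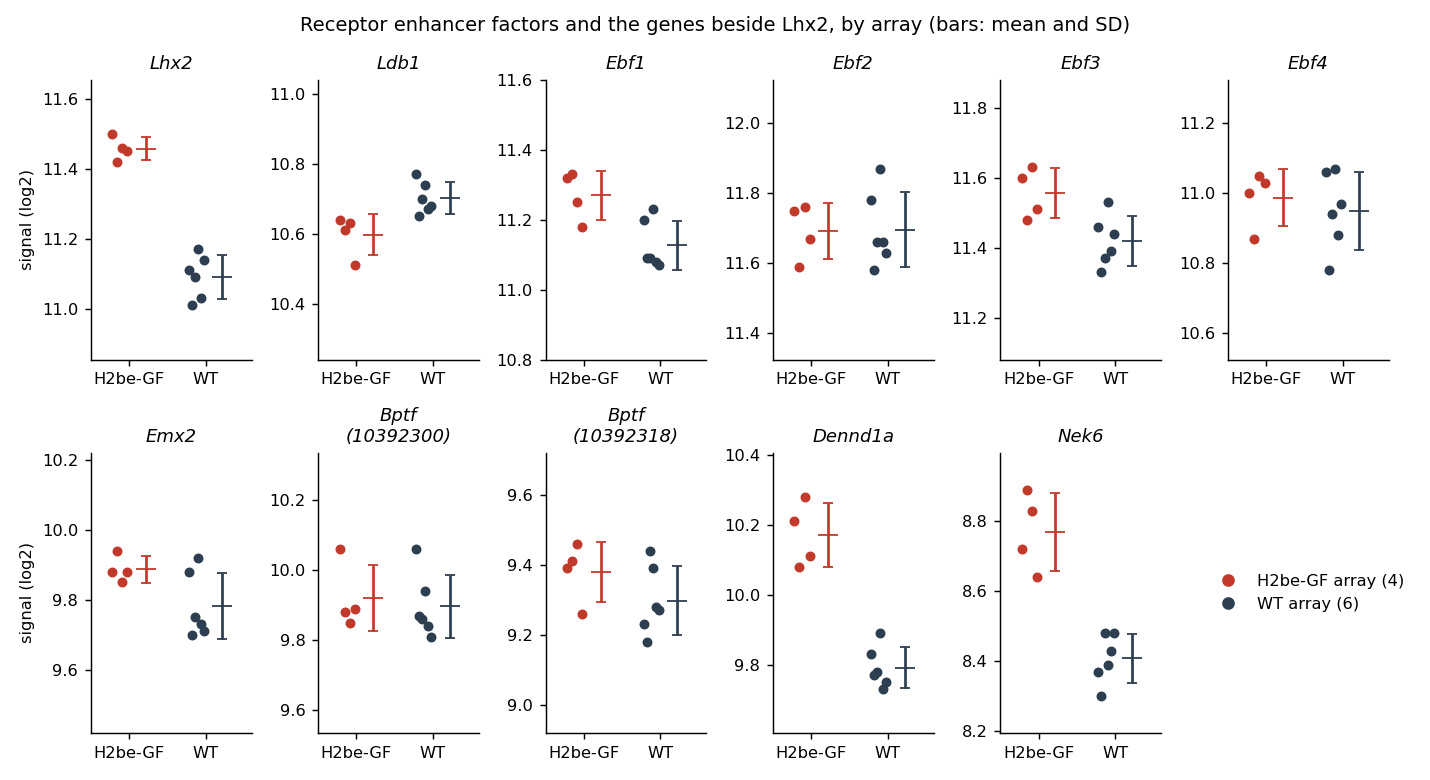
Log2 signal of each member probe set on 4 H2be-GF (red) and 6 WT (dark) arrays; the bar to the right of the points is the genotype's mean with its SD, and every panel spans 0.8 on the log2 scale. Lhx2, Dennd1a and Nek6 lie with their H2be-GF arrays wholly above WT, Ldb1 lies lower by a narrow margin, and the other panels overlap.

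The genes on both sides of Lhx2 differed by about as much as Lhx2 did. Dennd1a codes for an exchange factor of the small GTPase RAB35 in endocytic traffic. Its signal was 10.21, 10.08, 10.28 and 10.11 on the H2be-GF arrays and 9.83, 9.77, 9.78, 9.89, 9.73 and 9.75 on the WT arrays. No arrays overlapped, with a gap of 0.19 between the genotypes. The difference was 0.38 (SE 0.06, 95% interval 0.24 to 0.52) or 1.30-fold, and Dennd1a ranked 24 by p with an adjusted p of 0.0684 in limma.

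Nek6 codes for a NIMA-related kinase that acts in mitosis. Its signal was 8.72, 8.89, 8.83 and 8.64 on the H2be-GF arrays and 8.37, 8.30, 8.48, 8.39, 8.43 and 8.48 on the WT arrays. Here too no arrays overlapped, with a gap of 0.16. The difference was 0.36 (SE 0.07, 95% interval 0.21 to 0.51) or 1.29-fold, and Nek6 ranked 39 by p with an adjusted p of 0.119 in limma. Neither neighbour passed the threshold, and the interval of each difference held the value of Lhx2. Dennd1a passed under 3 of the 22 other settings and Nek6 under 1, namely the trended robust variance for both (limma adjusted p of 1.57e-05 and 0.0268) and, for Dennd1a, array weights and a filter at a mean of 7.

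Dennd1a, Lhx2 and Nek6 together made up the 3 of 11 member probe sets with every H2be-GF array above every WT array, where 1.29% of all probe sets tested had that order. In the order of the measured genes they are consecutive, and the genes next to them had smaller differences. Crb2, a Crumbs polarity gene on the far side of Dennd1a, differed by 0.11 (SE 0.10), and Psmb7, a proteasome subunit gene on the far side of Nek6, by -0.04 (SE 0.06). Of the 10 nearest measured genes on each side, 20 in all, 0 were called in limma, against 0.0862% of all probe sets tested. Above WT on every H2be-GF array were 2 of the 20, Dennd1a and Nek6. The other 18 had differences of -0.16 (Mir181b-2) to 0.21 (Nr5a1), with a median of -0.02 (8 above 0, 10 below), against a median of 0.01 over all probe sets tested. At an unadjusted p under 0.05, 0 of these 18 differed in limma, where 4.35% of all probe sets were higher and 4.07% lower.

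On the side of Dennd1a, those genes ran from Crb2 through Strbp, Gpr21, Rabgap1, Zbtb26, Zbtb6, Rc3h2 and Pdcl to the OR gene Olfr368. On the side of Nek6, they ran from Psmb7 through Adgrd2-ps, Nr5a1, Nr6a1, Mir181a-2, Mir181b-2, Olfml2a and Wdr38 to Arpc5l. Olfr368 lay at 8.22 to 8.39 on H2be-GF arrays and at 8.12 to 8.75 on WT arrays. Crb2, Gpr21, Nr5a1 and both miRNA genes were dim, with means of 7.49 or less in either genotype, and their intervals were wide. In the next 20 genes on each side a single OR gene, Olfr366, was above WT on every H2be-GF array, at 8.24 to 8.35 in H2be-GF and 7.85 to 8.18 in WT, a difference of 0.26 (SE 0.07, limma adjusted p = 0.344). It was singled out after its values were seen.

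Among 19640 runs of 3 consecutive measured genes, 2, or 0.0102%, had every H2be-GF array above every WT array in all 3 genes. They were Dennd1a, Lhx2 and Nek6, and the OR genes Olfr1014, Olfr1015 and Olfr1016 elsewhere on chromosome 2. Another 3 runs, or 0.0153%, were separated in the lower direction, and each was made of OR genes. Since Lhx2 and its neighbours were chosen by these values, the count is a description. A few long non-coding RNA genes and a small nuclear RNA gene lie between the 3 genes in the RefSeq gene table and had no probe set of a single symbol.

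**Figure D3:**
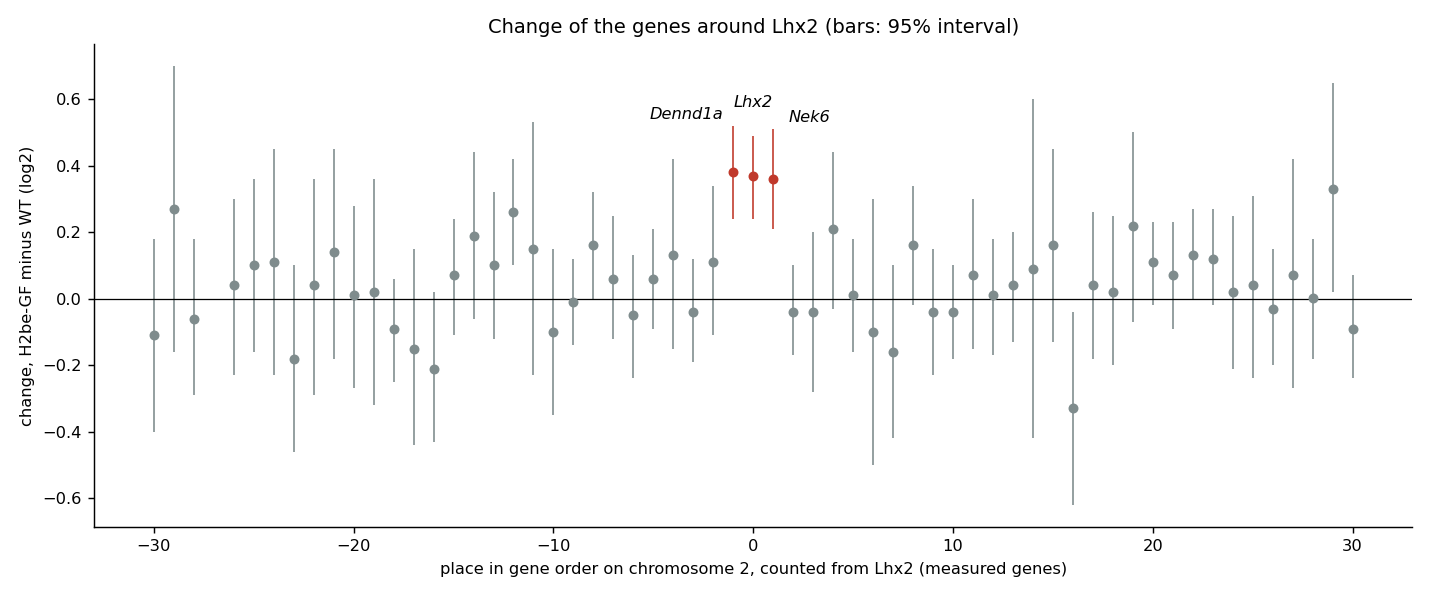
Difference between H2be-GF and WT (log2, with the 95% interval) for the measured genes on each side of Lhx2, in their order on chromosome 2; 0 on the horizontal axis is Lhx2, and a gene below the filter on signal is left out. Dennd1a, Lhx2 and Nek6 (red) stand at 0.36 to 0.38, and the nearest 18 other genes (grey) lie between -0.16 and 0.21.

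Promoters of these 3 genes are shown because the genes lie side by side and differed alike, and because the EBF and LIM-homeodomain proteins described here read such sequence. Each runs from 250 bases before to 50 bases after a transcription start in RefSeq (GRCm38.p6). Capitals mark matches to the EBF core CCCNNGGG, in which N is any base; it is its own reverse complement and reads alike on both strands.
Lhx2, start 1, chr2:38339031-38339330, + strand: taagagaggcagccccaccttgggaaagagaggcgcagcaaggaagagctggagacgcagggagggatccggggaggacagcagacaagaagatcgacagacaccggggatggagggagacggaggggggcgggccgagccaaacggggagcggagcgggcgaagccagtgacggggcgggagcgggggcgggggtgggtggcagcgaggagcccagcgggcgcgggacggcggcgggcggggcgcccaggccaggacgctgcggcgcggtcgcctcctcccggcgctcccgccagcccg
Lhx2, start 2, chr2:38351058-38351357, + strand: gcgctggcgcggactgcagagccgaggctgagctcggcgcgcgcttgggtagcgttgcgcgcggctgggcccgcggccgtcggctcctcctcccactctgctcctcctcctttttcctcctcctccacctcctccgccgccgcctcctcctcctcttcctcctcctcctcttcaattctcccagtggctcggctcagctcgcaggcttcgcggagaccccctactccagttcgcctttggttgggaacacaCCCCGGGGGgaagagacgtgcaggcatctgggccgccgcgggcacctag
Dennd1a, chr2:38287335-38287634, - strand: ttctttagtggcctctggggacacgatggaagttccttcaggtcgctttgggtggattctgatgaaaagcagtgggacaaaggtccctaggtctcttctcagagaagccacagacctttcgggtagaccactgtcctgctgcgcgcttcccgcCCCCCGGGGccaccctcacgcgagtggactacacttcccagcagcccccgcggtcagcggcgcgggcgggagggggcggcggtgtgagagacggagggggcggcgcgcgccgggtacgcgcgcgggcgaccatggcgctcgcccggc
Nek6, start 1, chr2:38511447-38511746, + strand: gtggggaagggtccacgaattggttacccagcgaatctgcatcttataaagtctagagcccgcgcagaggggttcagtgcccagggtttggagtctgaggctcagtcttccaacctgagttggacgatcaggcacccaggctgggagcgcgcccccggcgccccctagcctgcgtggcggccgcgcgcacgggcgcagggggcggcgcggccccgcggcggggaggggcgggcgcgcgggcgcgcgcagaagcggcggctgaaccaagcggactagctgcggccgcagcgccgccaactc

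The downstream Lhx2 start held 2 overlapping matches, the first of them beginning at base 2 of the transcript, and the upstream start held none. Dennd1a held 2 overlapping matches, of which the more distal began 97 bases before its start, and Nek6 held none at either of its starts. Over all members the core was in 4 of 14 promoters, those of Ldb1 and Ebf3 included, against 13.7% of 32851 promoters of this length. The homeodomain core TAATTA, also its own reverse complement, was in 1 of the 14, that of Emx2, against 5.29% of all. These promoters were rich in G and C, with 74.7% and 69.3% at the Lhx2 starts, 67.7% for Dennd1a and 71.3% for the Nek6 start shown, where the median promoter had 52.7%. Promoters of 9 member genes were matched. A match of letters is no binding site, and the arrays did not measure binding.

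Partners and relatives of these factors were counted from lists, of which 35 of 37 genes were measured above the filter. The lists held LIM partners, LIM-homeobox genes, EBF cofactors, Emx genes, and ISWI and NURF genes, so that relatives count along with binding partners. None of the 35 was called in limma, where 0.0862% of all probe sets were. An unadjusted p under 0.05 was found for 4 that were higher and 0 that were lower, against 4.35% of all probe sets higher and 4.07% lower. The median difference was 0.02, against 0.01 over all probe sets tested.

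LIM partners, proteins that bind LIM domains or LDB1, had 8 of 9 genes above 0 and a median difference of 0.09. Over all probe sets tested, 12197 of 23194 were above 0. Ldb2, the paralogue of Ldb1, lay at 8.13 to 8.21 on H2be-GF arrays and at 7.73 to 8.04 on WT arrays. These ranges did not overlap, an order found in 1 of the 9 genes and in 1.29% of all probe sets tested. The difference was 0.25 (SE 0.07, limma adjusted p = 0.358). Ssbp4, of the single-stranded DNA-binding proteins that attach to LDB1, had a difference of 0.25 (SE 0.08, limma adjusted p = 0.381), with 8.63 to 8.97 in H2be-GF and 8.50 to 8.66 in WT. Rlim, which codes for an E3 ubiquitin ligase of LIM cofactors and is named here after its values were seen, had a difference of 0.15 (SE 0.06, limma adjusted p = 0.558).

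LIM-homeobox genes other than Lhx2 had 6 of 10 differences above 0. Lhx6, which specifies interneurons in the forebrain, lay at 7.36 to 7.66 in H2be-GF and 7.07 to 7.47 in WT, a difference of 0.26 (SE 0.09, limma adjusted p = 0.440). Lhx5 had the next smallest p, with a difference of -0.20 (SE 0.14, limma adjusted p = 0.730). The EBF cofactor Zfp423 had a difference of 0.02 (SE 0.10) and Zfp521 of 0.07 (SE 0.10). Emx1, the paralogue of Emx2, had a difference of 0.17 (SE 0.12).

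ISWI remodelers and the other subunits of NURF lay between -0.16 and 0.10, with 7 of 13 above 0. Bap18 and Baz2a, with the smallest p of that list, had differences of -0.14 (SE 0.08) and -0.12 (SE 0.08) and limma adjusted p of 0.669 and 0.695. The genes in which a binding site of Olf-1 was described early, Omp, Adcy3, Gnal and Cnga2, are also markers of mature neurons. Cnga2, a subunit of the olfactory cyclic nucleotide-gated channel, lay at 12.33 to 12.41 in H2be-GF and 12.44 to 12.54 in WT, and Omp at 12.75 to 12.81 in H2be-GF and 12.83 to 12.96 in WT. Both lay below WT on all H2be-GF arrays, by 0.12 (SE 0.05) and 0.10 (SE 0.05), and neither passed the test (limma adjusted p of 0.604 and 0.659). Over all probe sets tested, 1.6% were separated in that direction. The transgene was made by replacing the Omp coding sequence within Omp genomic sequence. Whether the Omp probe set reads its RNA is not known. Adcy3 and Gnal overlapped between the genotypes, with differences of -0.10 (SE 0.06) and 0.06 (SE 0.08), so that 1 of the 4 genes lay above 0.

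**Figure D4:**
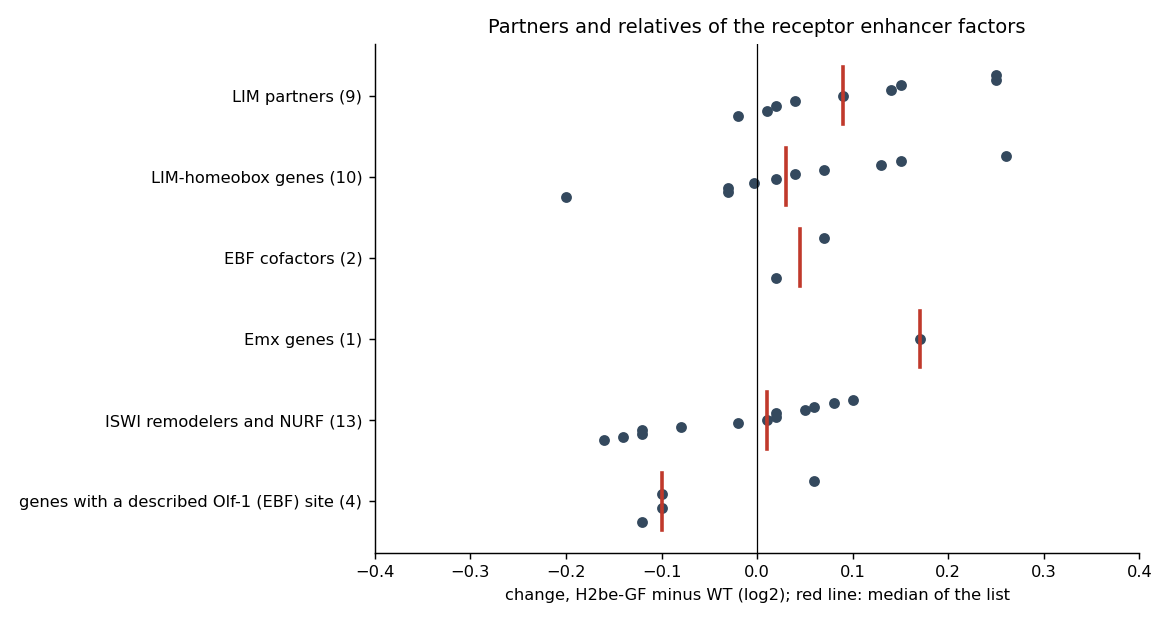
Difference between H2be-GF and WT (log2, horizontal) of each measured gene in the lists of partners and relatives (rows, with the number of genes), each dot a gene and the red line the median of its list. All dots lie between -0.20 and 0.26, and none was called.

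The sets of arrays that differ in Xist gave a contrast that the choice of members did not use. With genotype in the fit, limma called 99 probe sets, or 0.427%, between 5 Xist-high and 5 Xist-low arrays, and 0 of the 11 member probe sets, of which 0 also had an unadjusted p under 0.05 (5.24% of all). Lhx2 averaged 11.23 ± 0.22 (SD, n = 5) on Xist-high and 11.25 ± 0.20 (SD, n = 5) on Xist-low arrays, a difference with genotype in the fit of -0.02 (SE 0.06, limma adjusted p = 0.992). The largest member difference was 0.08 (SE 0.07), for the first Bptf probe set.

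The genotype difference was also set against the array sets by an interaction term. For Lhx2 it was 0.39 in the Xist-high and 0.35 in the Xist-low arrays, each of 2 H2be-GF and 3 WT arrays, and the difference between these was 0.04 (SE 0.13). For Dennd1a the values were 0.35 and 0.41, and for Nek6 0.42 and 0.30, with differences of -0.06 (SE 0.14) and 0.12 (SE 0.15). No interaction was called among the members or among all 23194 probe sets in limma (adjusted p of 1.00 for each member), and 0 members but 2.92% of all probe sets had an unadjusted p under 0.05. All 11 member probe sets had the same sign of difference in both sets, although that of Ebf2 lay within 0.004 of 0 in each.

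**Figure D5:**
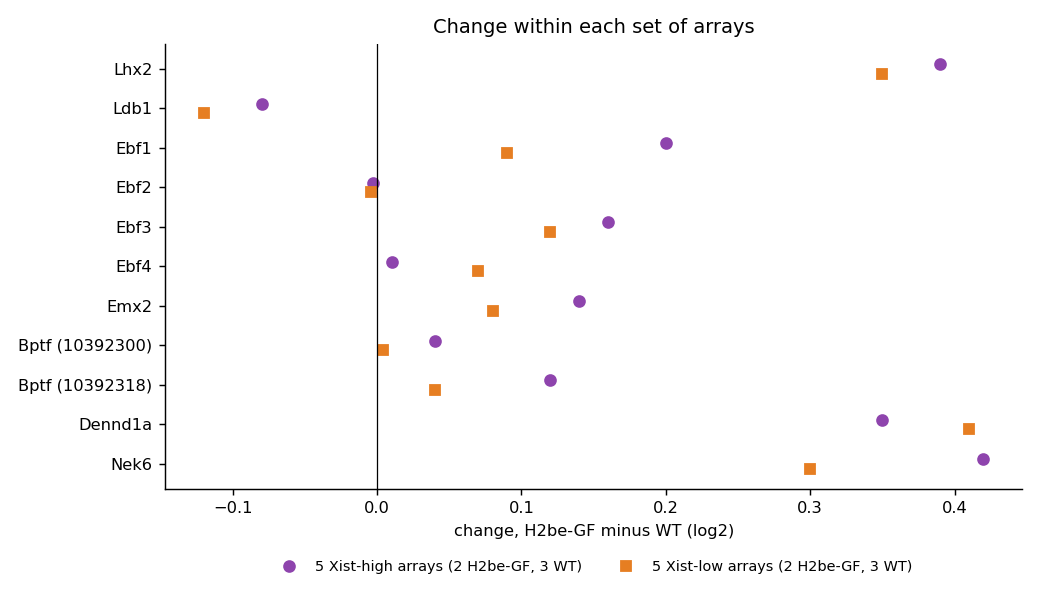
Difference between H2be-GF and WT (log2) of each member probe set within the 5 Xist-high arrays (purple circles) and within the 5 Xist-low arrays (orange squares), each 2 H2be-GF against 3 WT arrays. Lhx2, Dennd1a and Nek6 lie at 0.30 to 0.42 in both sets.

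The members varied little between arrays of a genotype. Their within-genotype SDs were 0.05 to 0.10, all 11 below the median of 0.15 over the probe sets tested, at mean levels of 8.55 to 11.70 that lay above the medians of the arrays. They also shared an order among the WT arrays. WT 4 was the highest WT array for 7 of the 11 probe sets, against 16.3% of all probe sets, and WT 2 was the lowest for 8 of 11, against 12.1%. WT 4 was also the highest WT array in the mean of the markers of mature olfactory neurons (11.77), while WT 2 (11.71) was not the lowest there.

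The genes whose signal followed that of Lhx2 most closely, once the means of genotype and of array set were removed, were Marf1, Birc6, Csgalnact1, Wsb2 and Tcf25. Their Pearson correlations with Lhx2 were 0.984, 0.982, 0.980, 0.975 and 0.971 over 10 arrays, the highest of 21586 probe sets. These arrays share their normalization, and removing those means leaves few independent values. Among the members, Ebf4 (0.842, rank 422), Ebf3 (0.803, rank 688) and Ebf2 (0.691, rank 1722) came closest. Many other probe sets thus followed Lhx2 more closely than these did. Dennd1a stood at 0.564 (rank 3282) and Nek6 at 0.065 (rank 10878). Within a genotype, the arrays highest in Lhx2 were thus not those highest in Nek6, the gene next to it.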

How the data were processed

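The authors measured RNA of whole MOE on Mouse Gene 1.0 ST arrays from Affymetrix and checked the scans with arrayQualityMetrics. In Expression Console they applied sketch-quantile normalization, summarised each probe set with IterPLIER, and deposited log2 values between 0 and 14.2 for 35556 probe sets. Tool versions and the genome build are not given in the sources used here. Quantile normalization hides a change shared by most genes, and IterPLIER sets dim probe sets near 0.

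Gene names came from the annotation of the platform (21789 with 1 symbol, 1621 with several, 12146 with none), updated by Entrez ID with a RefSeq table that matched 21698 and that served only for names and gene order. Groups were taken from the sample titles. Genotypes were compared with lmFit and eBayes of limma 3.58.1 (R 4.3.3; two-sided, no trend), adjusted over 23194 probe sets with a symbol and a mean above 5. On simulated data with the means and spreads of these probe sets, 18% of changes of 0.3 (log2) and 82% of changes of 0.6 were called. Over all probe sets, a difference of 0.3 would thus mostly be missed, and one that was not called is not shown to be absent. The changed probe sets were drawn at random, whereas the members had within-genotype SDs of 0.05 to 0.10, below the median of 0.15. The share for the members themselves was not simulated. The members, lists and rules were chosen with earlier results of these data known. Named were all members, the 10 nearest measured genes on each side of Lhx2, called list genes or else up to 2 per list with the smallest p, and the 5 probe sets most like Lhx2. A list gene with several probe sets was read from its brightest. Partners and relatives of the factors, ISWI and NURF genes and 13 cell type marker lists were counted. Xist above 8 defined the Xist-high arrays. Alternatives covered normalization, an added 16, the variance model, array weights, covariates, filters, each array left out, and each Xist set alone. The number of arrays limits the precision.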

Additional observations from a re-analysis of the deposited data

Results flagged for a closer look

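In the first probe set of Bptf (10392300), H2be-GF 1 stood apart from the other H2be-GF arrays, at 10.06 against a next highest value of 9.89. The gap was 0.838 of the range of the 4 arrays, where 0.829 is the 95% critical value of Dixon's test. Chance alone gives such a gap in about 1 of 20 groups, and 22 groups were tested. The second Bptf probe set did not show it, and no member showed a called difference between the Xist-high and Xist-low arrays in its genotype difference.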

How the results depend on the processing

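The difference of Lhx2 kept its sign in all 22 alternatives, but its call ended in 17 of them. Values with the call lost were 0.37 after a second quantile normalization (limma adjusted p = 0.0637), with array set as covariate (0.0756) and with probe sets of 1 symbol only (0.0569), 0.35 after median centring (0.149), and 0.39 and 0.35 within the Xist-high and Xist-low arrays, where 0 probe sets of any gene were called in limma (1113 and 1012 at an unadjusted p under 0.05, 3 of them members in each set). In those 6 settings 0 members were called, and likewise without any 1 array, when Lhx2 ranged from 0.35 to 0.38, Dennd1a from 0.34 to 0.41 and Nek6 from 0.32 to 0.41. The trended robust variance called 3 members, with Dennd1a at 0.38 and Nek6 at 0.36. Array weights called 2, with Dennd1a at 0.39, and a filter at a mean of 7 called 2, with Dennd1a at 0.38. The count of genes beside Lhx2 that were called was 2, 1 and 1 in these settings, and that of the listed partners and relatives was 0 in all. Over all probe sets the count of calls was 114, 23 and 36 there, 13 with 1 symbol only, and 11 to 19 without 1 array. Between the array sets 26 were called with the filter at 7. Signs turned for values near 0: Ebf2 was at 0.01 after a second quantile normalization and ranged from -0.03 to 0.03 without 1 array, and the first Bptf probe set ranged from -0.02 to 0.06. No setting moved the median difference of all probe sets by more than 0.1.

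With the replicate number as a block, 5 probe sets and 0 members were called, with Lhx2 at 0.36, Dennd1a at 0.35, Nek6 at 0.39 (limma adjusted p of 0.592 for each) and the first Bptf probe set at -0.01, and 4 were called between the array sets. The arrays share only a number: correlations of the same-numbered deviations were 0.530, 0.219, -0.423 and 0.261, and 1 of 4 H2be-GF arrays correlated best with its own number. Levels are limited by 4 and 6 arrays of pooled mice, and by a single probe set for all members but Bptf.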
